A study of Mus musculus with 3 samples.

Results

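Molecular chaperones help other proteins fold, and this account follows 85 of the 20574 gene symbols measured in mouse peritoneal macrophages: the heat shock proteins, their J-domain partners, the CCT ring and the chaperones of the endoplasmic reticulum (ER). They were chosen by name, with earlier results of these data known. The names are every symbol of the Hspa, Hspb, Hsp90, Dnaj, Pdia and Cct2 to Cct8 families, with Hspd1, Hspe1, Hsph1, Canx, Calr, Sdf2l1, Herpud1 and Xbp1. By the place where the protein works, 20 were put in the ER, 37 in the cytosol and nucleus, 8 in mitochondria and 9 in the CCT ring, and 11 were left unassigned. Pdia4, Dnaja1 and Tcp1 were not analysed here.

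RNA from primary macrophages labelled WT and kept in DMEM was sequenced in 3 libraries, 1 per condition. One library was untreated. The second came from macrophages given 5 apoptotic cells each for 5 h, and the third from macrophages given LPS, the bacterial surface lipid that activates macrophages, at 100 ng/ml for 5 h. The labels give no time for the untreated library, so treatment cannot be told apart from time in culture or from the library itself. The sources used here do not give the strain, age or pooling of the mice, or what the apoptotic cells were.

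Newly made secretory and membrane proteins fold inside the ER. There the Hsp70 protein BiP (Hspa5) and the Hsp90 protein Grp94 (Hsp90b1) hold unfolded chains, the lectins calnexin (Canx) and calreticulin (Calr) hold sugar-bearing ones, and protein disulfide isomerases such as Pdia3 and Pdia6 pair their cysteines. When unfolded chains build up, the unfolded protein response raises ER chaperone genes through the factors ATF6 and XBP1. In the cytosol the comparable response runs through the heat shock factor HSF1 and raises genes such as Hspa1a, Hspa1b and Dnajb1. Macrophages that secrete cytokines send these proteins through the ER.

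The values were taken as FPKM, a read count scaled by transcript length and sequencing depth, which allows levels to be compared between genes. They summed to between 197222 and 200224 per library. The steps between low values imply 3.17 to 3.28 reads per FPKM for a transcript of 1 kb, and the intervals given below rest on read numbers estimated in this way. They are approximate and cover counting error only, since no condition has a replicate, and no p-value is given. Many genes were listed at exactly 0, among them genes that every cell uses, so a 0 may be a failed estimate. Of the 85 members, 30 were above 0 in all 3 libraries, 27 in 2 and 18 in 1. The other 10 were at 0 throughout: Pdia2, Dnajb7, Dnajb8, Dnajc22, Dnajc5b, Dnajc5g, Hspa12b, Hspb3, Hspb7 and Cct8l1. Ratios were formed only between libraries where a gene was above 0, as log2((FPKM + 1) / (FPKM + 1)), if the 3 libraries averaged 1 FPKM or more. This scale understates differences of low genes. That filter kept 63 members and left out 12 that were above 0 somewhere.

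Several ER chaperone genes stood higher with apoptotic cells than without. The largest difference was that of Sdf2l1, whose product works with BiP and its J-domain partner Dnajb11 in the ER lumen. Its level was 13.5 FPKM untreated, 85.5 FPKM with apoptotic cells and 20.0 FPKM with LPS. The apoptotic-cell library stood apart from the other two, 6.31-fold above the untreated one (counting interval 4.44 to 9.19) and 4.26-fold above the LPS one (3.13 to 5.90). In mm10 the gene occupies chromosome 16, 17130138 to 17132383, on the minus strand.

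J-domain proteins stimulate Hsp70 proteins to grip their clients. Dnajb11, the J-domain partner of BiP, stood at 31.3, 68.5 and 36.8 FPKM (untreated, apoptotic cells and LPS, the order kept from here on). Its level with apoptotic cells was 2.19-fold that of the untreated library (1.87 to 2.58). Dnajc3, a J-domain protein also known as an inhibitor of stress kinases, followed at 20.7, 44.5 and 26.0 FPKM, a fold of 2.15 (1.88 to 2.46). Dnajb9, a J-domain protein that is a classic target of XBP1, differed less, at 38.9, 56.0 and 61.1 FPKM, and there the LPS library was the highest. As listed, both Dnajb11 and Dnajc3 were high in the apoptotic-cell library, and the untreated and LPS libraries lay near each other. This depends on the scaling of the libraries. With median-of-ratios scaling, taken up below, the log2 ratio of LPS to untreated rose from 0.23 to 0.84 in Dnajb11 and from 0.31 to 0.91 in Dnajc3. The ratios of apoptotic cells to untreated were then 1.32 and 1.27. On chromosome 16 Dnajb11 spans 22857845 to 22879634, and on chromosome 14 Dnajc3 spans 118937976 to 118981697.

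The disulfide isomerases with a ratio to the untreated library, Pdia6 and Pdia5, were also higher with apoptotic cells than without. Pdia6 was listed at 65.2, 156 and 102 FPKM, so that apoptotic cells gave 2.39-fold the untreated level (2.13 to 2.69). Pdia5 was a low gene, at 1.74, 6.16 and 5.85 FPKM, and both treated libraries were above the untreated one. Its fold of 3.53 with apoptotic cells has a wide interval (1.64 to 8.46), because the untreated value stands for about 9 reads. Pdia3, which works with calnexin and calreticulin on glycoproteins, was listed at 0, 519 and 329 FPKM. Between the treated libraries its level was 1.58-fold higher with apoptotic cells (1.501 to 1.657). Hspa13, an Hsp70 protein of the ER, was listed at 10.4, 20.3 and 25.1 FPKM, higher in both treated libraries than in the untreated one. In mm10 Pdia6 spans 17266545 to 17284770 of chromosome 12, Pdia5 35397312 to 35490873 and Hspa13 75745431 to 75767104 of chromosome 16.

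In all, 33 members had a ratio of apoptotic cells to no treatment. Of these, 5 were at least 2-fold higher, where 12.4% of all genes were, and 3 were at least 2-fold lower, where 16.4% of all genes were. The 5 were Sdf2l1, Pdia5, Pdia6, Dnajb11 and Dnajc3, each of them in the ER, and the 3 lower were Hspa1a, Dnajc21 and Hspa9, none of them in the ER. The ER group had 10 members with a ratio, ranging from -0.59 to 2.57 around a median of 0.99, against a median of -0.13 over 3369 genes. The 2 ER members below 0 were Dnajc1 (-0.59) and Dnajc18 (-0.43). Both encode J-domain proteins of the ER membrane. Dnajb14, another such gene, stood at 0.46. With median-of-ratios scaling, which moves the median of all genes by 0.18, the split of members was 6 higher, Hspa13 being added, and 0 lower. With a pseudocount of 5 in place of 1, Dnajc3 and Pdia5 fell short of 2-fold, as did Hspa1a and Dnajc21.

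**Figure D1:**
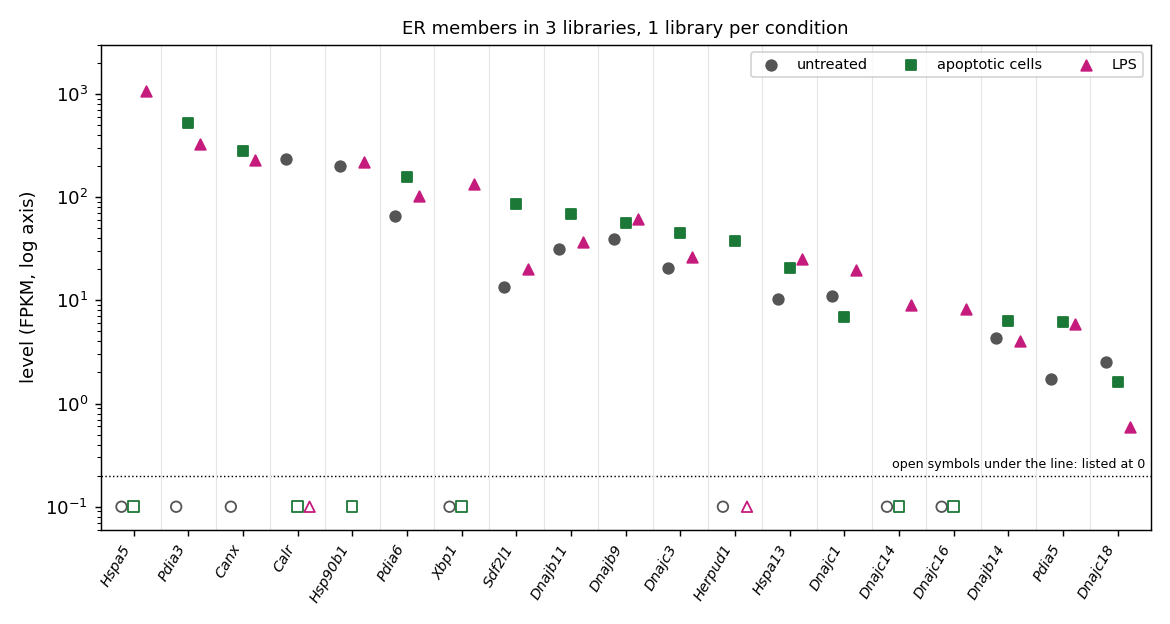
Level of 19 ER members in FPKM on a log axis, ordered by their highest value, with 1 symbol per library (circles untreated, squares apoptotic cells, triangles LPS). Open symbols under the dotted line are values listed at 0, and Sdf2l1 shows the widest gap between filled symbols, 85.5 FPKM with apoptotic cells against 13.5 and 20.0 FPKM.

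Several of the most abundant ER genes could not be compared in this way. Hspa5 was listed at 1076 FPKM with LPS, rank 27 of the 7844 genes above 0 in that library, and at 0 in the other two. Calr was at 232 FPKM without treatment and listed at 0 in both treated libraries. Hsp90b1 was listed at 202 FPKM untreated, 0 with apoptotic cells and 216 FPKM with LPS. Canx was listed at 0, 277 and 229 FPKM, and Xbp1, the transcription factor of the unfolded protein response, at 0, 0 and 135 FPKM. Herpud1, which serves the removal of misfolded ER proteins, had 37.2 FPKM with apoptotic cells and a listed 0 elsewhere. Dnajc14 and Dnajc16 were listed only with LPS, at 9.01 and 8.19 FPKM. No direction can be read from these zeros.

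With LPS 2 of 11 ER members with a ratio stood 2-fold above the untreated library, against 5 of 10 for apoptotic cells, but this contrast depends on the scaling. Median-of-ratios scaling gave 6 ER members in each, Dnajb9, Dnajc1, Pdia6 and Sdf2l1 being added with LPS, and upper-quartile scaling gave 5 in each. Of 35 members with a ratio, 2 were at least 2-fold higher, where 8.51% of all genes were, and 4 were at least 2-fold lower, where 26.2% were. The 4 lower ones were Dnajc18 of the ER and Hspa1a, Dnaja4 and Hspb6 of the cytosol. The 2 higher ones were Pdia5, 3.36-fold (1.54 to 8.08), and Hspa13, 2.41-fold (1.97 to 2.97). The 11 ER members with a ratio had a median of 0.53 and ranged from -1.14 to 1.32. The median of all 3421 genes was -0.40, so the ER median lay 0.94 above it; the corresponding distance with apoptotic cells was 1.12. Both comparisons use the same untreated library, so they are not independent. Dnajc1 was listed at 10.97, 6.93 and 19.6 FPKM and Dnajc18 at 2.50, 1.60 and 0.593 FPKM, so these ER membrane genes were at their highest in different libraries. Hsp90b1 was near level as listed (fold 1.07, log2 ratio 0.10). Its log2 ratio was 0.72 with median-of-ratios scaling and 0.49 with upper-quartile scaling. Over all members the counts were 9 higher and 2 lower with median-of-ratios scaling, and 7 and 3 with upper-quartile scaling. With a pseudocount of 5 none of the 6 reached 2-fold.

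The direct comparison of both treatments needs no untreated library. On the scale with 1 FPKM added, Sdf2l1 was the sole ER member at least 2-fold higher with apoptotic cells, with a log2 ratio of 2.04. Dnajb11 (0.88), Dnajc3 (0.75), Dnajc18 (0.71), Pdia3 (0.66) and Pdia6 (0.61) followed. Dnajc18 is a low gene, and its fold in plain FPKM was 2.70 (1.22 to 6.57). It passed 2-fold with a pseudocount of 0.1. Dnajc1 was the sole member at least 2-fold lower (-1.38), while Dnajb9 (-0.12) and Pdia5 (0.06) were near level. Over 12 ER members the median was 0.58, against 0.32 over 4599 genes. In all 36 members with a ratio, 5 were at least 2-fold higher, where 15.7% of all genes were, and 1 was lower, where 5.54% were. Median-of-ratios scaling gave 4 higher and 3 lower, and upper-quartile scaling 4 and 2.

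**Figure D2:**
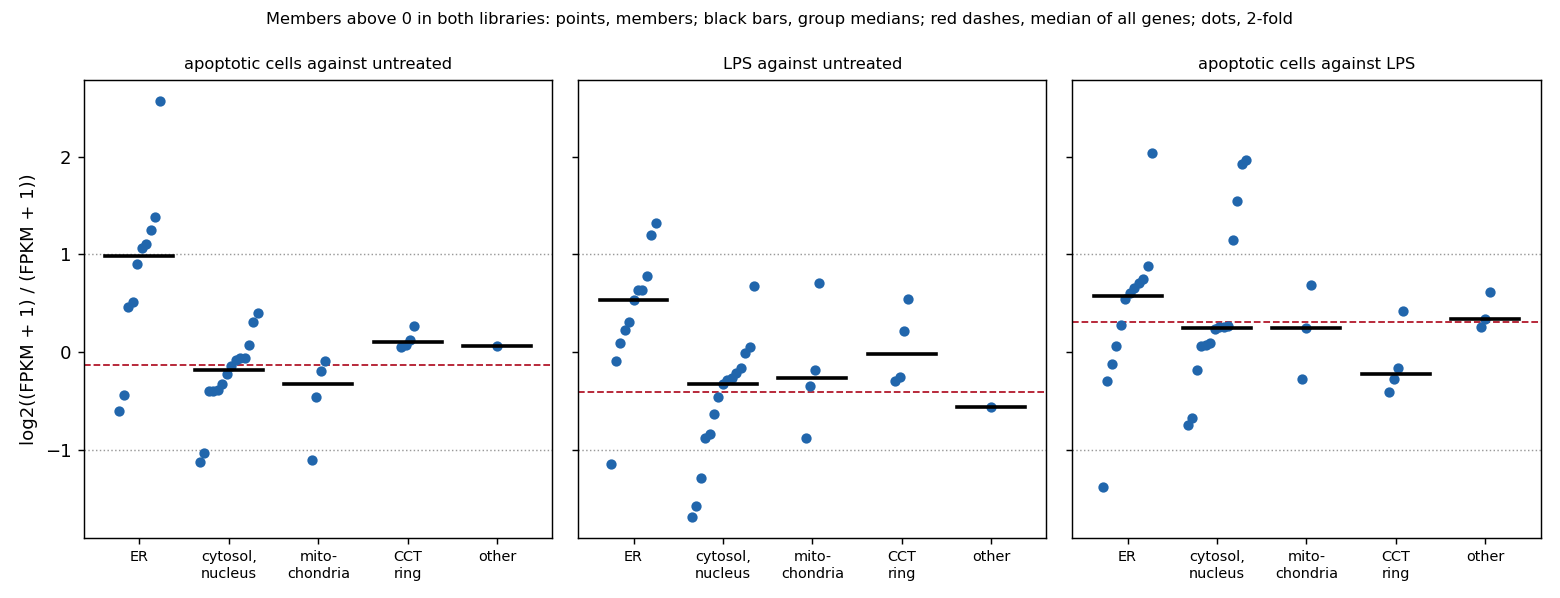
Log2 ratios of the members above 0 in both libraries (points), by the place where the protein works, for the 3 comparisons, with group medians as black bars, the median of all genes as a red dashed line and 2-fold as dotted lines. The ER medians are 0.99, 0.53 and 0.58, and the cytosolic ones -0.18, -0.32 and 0.25, of which the last 2 change sign with median-of-ratios scaling.

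Promoter sequences, which the choice of members did not use, were searched for known elements. The ER stress element, at which the unfolded protein response acts, was searched as CCAAT followed after 9 bases of any kind by CCACG, on both strands. RefSeq windows on GRCm38.p6 of 250 bases before to 50 bases after the transcription start were found for 71 members. An exact element lay in 6 of them, all in the ER group (6 of 18 windows), against 0.137% of 27025 genes. It was in 0 of 31 cytosolic genes, 0 of 8 CCT genes and 0 of 5 mitochondrial genes. The unfolded protein response is known to raise ER chaperone genes. Its element was therefore to be looked for among them, and these shares are no independent evidence. The 6 genes are printed 5′ to 3′ on the strand of the gene, with the element in capitals; in Calr it lies on the opposite strand, so it reads from CGTGG to ATTGG.

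Hspa5: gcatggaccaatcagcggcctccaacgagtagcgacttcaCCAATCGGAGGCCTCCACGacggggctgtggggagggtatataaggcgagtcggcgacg
Hsp90b1: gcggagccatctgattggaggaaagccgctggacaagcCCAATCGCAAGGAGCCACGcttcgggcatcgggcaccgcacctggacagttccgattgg
Canx: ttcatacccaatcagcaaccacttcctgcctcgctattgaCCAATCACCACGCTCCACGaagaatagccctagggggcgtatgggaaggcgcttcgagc
Calr: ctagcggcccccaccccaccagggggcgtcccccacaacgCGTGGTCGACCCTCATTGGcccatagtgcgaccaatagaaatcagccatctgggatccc
Pdia6: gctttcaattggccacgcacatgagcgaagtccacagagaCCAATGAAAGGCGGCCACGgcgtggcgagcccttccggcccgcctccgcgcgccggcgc
Dnajc3: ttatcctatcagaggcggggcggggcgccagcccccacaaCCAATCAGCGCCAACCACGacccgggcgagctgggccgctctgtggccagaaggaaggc

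The stretches are chr2:34771985-34772083 (plus strand) for Hspa5, chr10:86705598-86705694 (minus) for Hsp90b1 and chr11:50325760-50325858 (minus) for Canx. Those of Calr, Pdia6 and Dnajc3 are chr8:84847035-84847133 (minus), chr12:17266451-17266549 (plus) and chr14:118937787-118937885 (plus). The element began 65 bases before the start in Hspa5, 98 in Pdia6, 105 in Dnajc3, 145 in Canx and 162 in Calr. Hsp90b1 held it at 2 places, 212 and 107 bases before the start, of which the first is printed. Dnajc3 and Pdia6 were above 0 in all 3 libraries, and both were at least 2-fold higher with apoptotic cells than without. The other 4 are the abundant genes with listed zeros described above.

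Sdf2l1, the gene with the largest difference, held no exact element in its window. Its last 150 bases before the start (chr16:17132384-17132533, minus strand) are shown with every CCAAT and every CCACG, on either strand, in capitals.

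Sdf2l1: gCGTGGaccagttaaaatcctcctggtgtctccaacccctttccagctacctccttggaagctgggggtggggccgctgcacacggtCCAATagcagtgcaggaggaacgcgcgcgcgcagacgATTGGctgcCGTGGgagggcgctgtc

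Nearest the start, both on the opposite strand, CCAAT lay 26 to 22 bases and CCACG 17 to 13 bases before it, which is not the order of the element searched. A shorter form, the ER stress element II (ATTGG, 1 base, CCACG), was searched after the first results were seen. It was in the windows of Herpud1 and Dnajb11 and of 0.0444% of all genes. In Herpud1 it lay 52 bases before the start (chr8:94386337-94386427, plus strand), and it is in capitals here.

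Herpud1: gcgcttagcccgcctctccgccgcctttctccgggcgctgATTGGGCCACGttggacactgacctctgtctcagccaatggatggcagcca

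In Dnajb11 the match lay after the transcription start and is not printed. A match is a description of these letters and not a measured binding site.

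**Figure D3:**
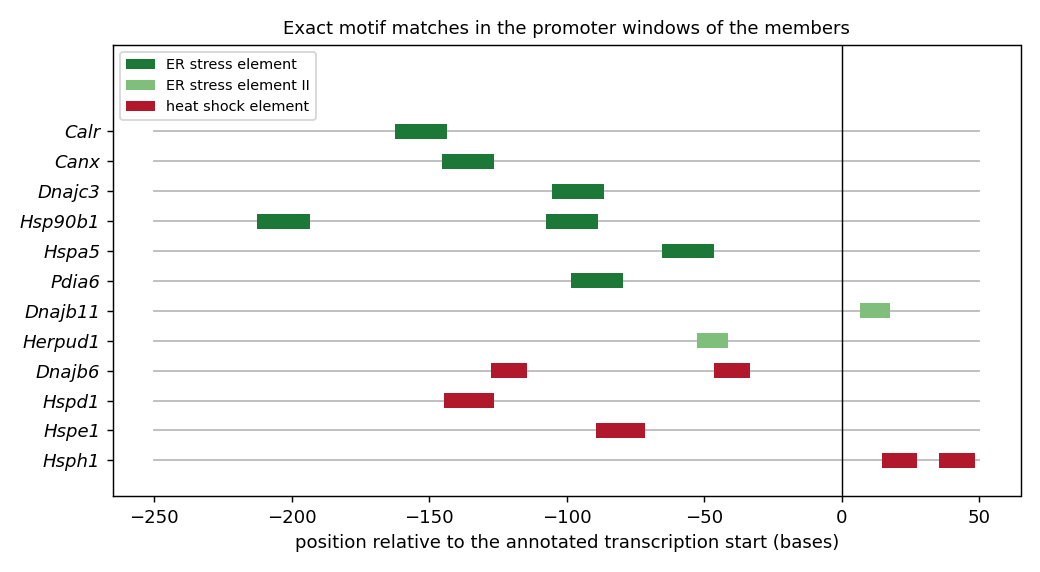
Exact matches (bars) to the ER stress element, the ER stress element II and the heat shock element in windows from 250 bases before to 50 bases after the transcription start, in bases from the start, for each member with a match. Elements of the ER stress type lie in ER genes and those of the heat shock type in Hspd1, Hspe1, Dnajb6 and Hsph1; bars of Dnajb6 and Hsph1 show 1 match measured from 2 annotated starts.

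Genes of the unfolded protein response and ER folding outside the members were followed as a list. Of 32 such genes 27 were in the table, and 10 had a ratio of apoptotic cells to no treatment, with a median of 0.87, against -0.13 over all genes. At least 2-fold higher, as were 12.4% of all genes, were 5: Selk (48.5, 113 and 99.3 FPKM), a selenoprotein of the ER membrane, Vimp under its older symbol H47 (66.4, 154 and 133 FPKM), Creld2 (24.3, 56.7 and 0 FPKM), and the channel subunits Sec61b (119, 264 and 151 FPKM) and Sec61g (160.1, 339 and 264 FPKM). As listed, Selk, Vimp, Sec61b and Sec61g were highest in the apoptotic-cell library, with the LPS library between it and the untreated one. This order depends on the scaling. Median-of-ratios scaling divides the apoptotic-cell values by 1.05 and the LPS values by 0.79. The LPS library is then the highest in Selk, Vimp and Sec61g, but not in Sec61b. Ero1lb, which reoxidises disulfide isomerases, was the sole one at least 2-fold lower, at 23.1, 6.57 and 4.01 FPKM. Its promoter window holds the ER stress element, as does that of Creld2. With LPS 1 of 8 was at least 2-fold higher (Selk) and 1 lower (Ero1lb), around a median of 0.09, against 8.51% and 26.2% of all genes and a median of -0.40. Atf6, the sensor gene, was listed at 26.1, 27.8 and 14.9 FPKM.

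The cytosolic chaperones held none of the members that stood 2-fold higher with apoptotic cells. Of the 14 cytosolic and nuclear members with a ratio, 0 were at least 2-fold higher and 2 were at least 2-fold lower, around a median of -0.18. Over all genes 12.4% were higher and 16.4% lower, with a median of -0.13, so the lower share and the median are near the background. The heat-inducible genes were low. Hspa1a, which encodes inducible Hsp70 (chromosome 17, 34969190 to 34972156), was listed at 4.35, 1.62 and 1.20 FPKM, and the untreated library was the highest. The untreated level was 2.68-fold that with apoptotic cells (1.42 to 5.35) and 3.64-fold that with LPS (1.78 to 8.18), and with median-of-ratios scaling neither difference reached 2-fold. Its near-identical neighbour Hspa1b was listed at 2.49, 2.001 and 1.87 FPKM. Since 58.8% of the 50-base windows of the Hspa1a transcript also occur in Hspa1b, the split of reads between them is uncertain.

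Dnajb1, the main J-domain partner of cytosolic Hsp70 and a classic HSF1 target, was level at 17.1, 16.4 and 15.3 FPKM. Dnajb4 was as even, at 10.6, 11.2 and 10.6 FPKM. With median-of-ratios scaling, however, the log2 ratio of LPS to untreated turned from -0.15 to 0.44 in Dnajb1 and from -0.004 to 0.57 in Dnajb4. Dnaja2, which serves the constitutive Hsc70 protein, was listed at 46.7, 44.9 and 75.5 FPKM, and only its LPS level stood apart (1.62-fold over untreated, 1.43 to 1.84). Hsph1, a nucleotide exchange factor of Hsp70, was listed at 22.8, 18.0 and 0 FPKM. Dnajc21, a J-domain protein of ribosome assembly, stood at 10.2, 4.13 and 7.16 FPKM, more than 2-fold lower with apoptotic cells, but not so with median-of-ratios scaling. As listed, these values show no common direction among the partners of cytosolic Hsp70.

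The constitutive genes were among the most abundant of all. Hspa8, which encodes Hsc70, was listed at 0, 872 and 724 FPKM, rank 36 of 7970 genes above 0 with apoptotic cells and 49 of 7844 with LPS. Hsp90ab1, the constitutive Hsp90 gene, was listed at 648, 0 and 418 FPKM, rank 55 of 6747 in the untreated library. Its inducible counterpart Hsp90aa1 was listed at 105, 0 and 87.3 FPKM. The LPS level was 0.645 of the untreated one for Hsp90ab1 (0.616 to 0.675) and 0.831 for Hsp90aa1 (0.758 to 0.911). With median-of-ratios scaling the log2 ratio of Hsp90ab1, -0.63, moved close to level, and that of Hsp90aa1 turned from -0.26 to 0.35 (0.12 with upper-quartile scaling). Hspa4, an exchange factor of Hsp70, was listed at 58.6 FPKM with LPS and at 0 elsewhere.

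With LPS, 3 of 15 cytosolic members were at least 2-fold lower and 0 higher, around a median of -0.32. Of all genes 26.2% were lower and 8.51% higher, and their median was -0.40. Dnaja2 passed 2-fold higher with both other scalings (log2 ratios of 1.30 and 1.07). The cytosolic median was 0.15 with median-of-ratios scaling and -0.013 with upper-quartile scaling, so its direction depends on the scaling. The 3 were Hspa1a, Dnaja4 and Hspb6, all low genes. Dnaja4, an Hsp70 partner, was listed at 2.94, 2.59 and 0.231 FPKM, and the LPS value stands for about 2 reads. The small heat shock gene Hspb6 was listed at 2.85, 4.07 and 0.301 FPKM, the last for about 1 read. Hspb1, the most studied small heat shock gene, was at 3.72, 4.87 and 1.66 FPKM, for about 8, 9 and 3 reads, and counting error spans these differences. Dnaja4, Hspb6, Hspb1 and Dnajc12 (0, 8.16 and 1.42 FPKM) were the 4 cytosolic members at least 2-fold higher with apoptotic cells than with LPS. They were 4 of 14 with a ratio, where 15.7% of all genes were higher.

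Several cytosolic members had a listed 0 beside a clear level. Dnajc8, a J-domain protein of RNA splicing, was listed at 0, 49.5 and 41.3 FPKM. Dnajc2, which sits on the ribosome, was at 27.3, 0 and 14.4 FPKM, and Dnajc9, a histone chaperone, at 18.0, 0 and 0 FPKM. Dnajc7 and Hspa14 were above 0 only with LPS, at 26.9 and 20.3 FPKM. Dnajb5 (6.53, 4.77 and 0 FPKM) and Dnajc24 (8.51, 0 and 8.85 FPKM) were lower. Hspa4l (5.62, 4.03 and 4.72 FPKM) and Dnajc17 (5.68, 5.31 and 4.35 FPKM) had no listed 0 and stayed within 2-fold. Of the unassigned members that passed the filter, Dnajc13, an endosomal protein, was listed at 0, 16.9 and 13.9 FPKM, Hspb11 at 0, 6.73 and 5.10 FPKM, Dnajc4 at 5.12, 0 and 0 FPKM, and Hspbap1 at 1.51, 1.62 and 0.708 FPKM. The 12 members under the filter, Cct6b, Dnajb3, Dnajb13, Dnajc6, Dnajc27, Dnajc28, Hspa1l, Hspa2, Hspa12a, Hspb2, Hspb8 and Hspb9, did not pass 1.34 FPKM in any library.

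**Figure D4:**
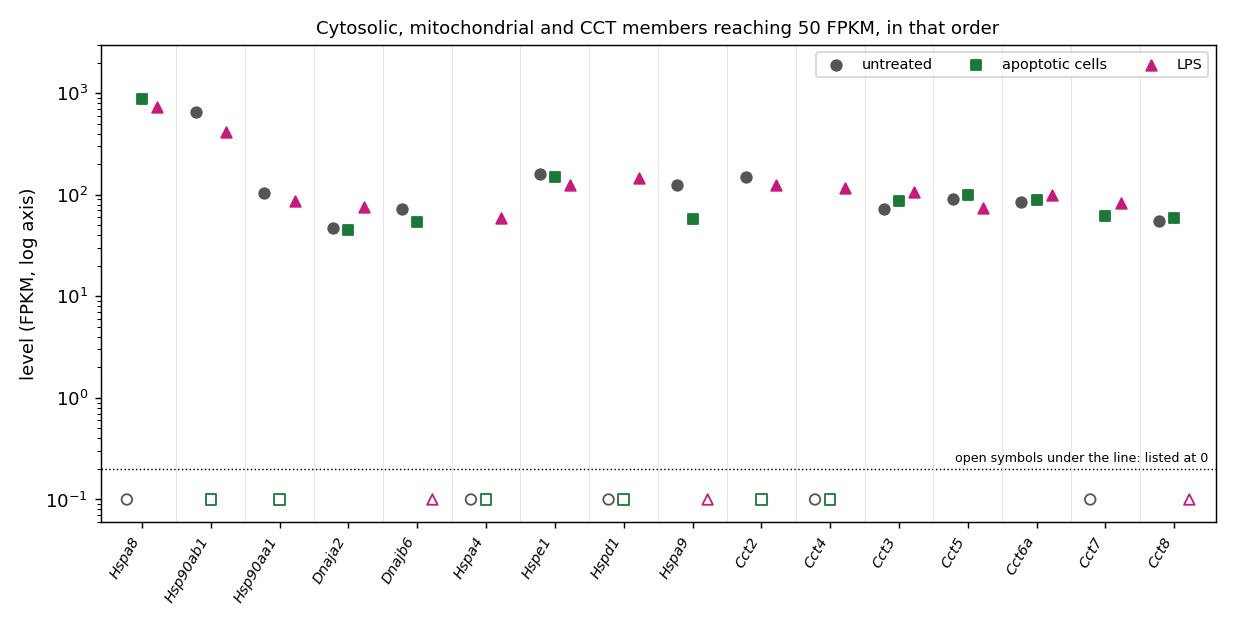
Level of the cytosolic, mitochondrial and CCT members that reach 50 FPKM in any library, in that order, in FPKM on a log axis, with the same symbols as for the ER members and values listed at 0 as open symbols under the dotted line. Levels above 0 lie close together within most genes, with Hspa9 (125 and 57.9 FPKM) the widest apart.

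The mitochondrial chaperonin folds imported proteins in a barrel of Hspd1 capped by Hspe1. Hspe1 was nearly even at 159, 149 and 125 FPKM. Hspd1 was listed at 0, 0 and 145 FPKM, so only the LPS library gives both, and there they stood at 145 and 125 FPKM. Hspa9, the mitochondrial Hsp70 that pulls proteins through the inner membrane, was listed at 125, 57.9 and 0 FPKM. The untreated level was 2.16-fold that with apoptotic cells (1.94 to 2.40), a log2 ratio of -1.10. This was the sole mitochondrial member past 2-fold in any comparison, and with median-of-ratios scaling it fell short of that size, while Dnajc15 with LPS passed it there and with upper-quartile scaling. Dnaja3, a J-domain partner of Hspa9, was listed at 14.5, 10.3 and 12.7 FPKM and Dnajc30 at 19.2, 16.7 and 10.03 FPKM. Dnajc15 and Dnajc19, J-domain proteins of protein import, were listed at 12.3, 0 and 20.7 FPKM and at 0, 0 and 19.2 FPKM, and Dnajc11 at 0, 15.5 and 0 FPKM.

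The heat shock element was searched as 3 alternating units of GAA and TTC with 2 bases of any kind between units. It was in 4 of 71 members (Hspd1, Hspe1, Hsph1 and Dnajb6) and in 0.662% of 27025 genes. Hspd1 and Hspe1 are transcribed away from each other from starts 216 bases apart, and the overlapping matches lie between them, 144 to 127 bases before the Hspd1 start. That stretch (chr1:55088019-55088116) is printed on the strand of Hspd1, followed by the one of Dnajb6 (chr5:29735812-29735897, plus strand), with the matches in capitals.

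Hspd1: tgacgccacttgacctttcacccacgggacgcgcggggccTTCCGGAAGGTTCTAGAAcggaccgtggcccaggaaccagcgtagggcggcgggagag
Dnajb6: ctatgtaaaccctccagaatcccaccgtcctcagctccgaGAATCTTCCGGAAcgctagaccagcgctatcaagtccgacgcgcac

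None of these 4 genes was past 2-fold where a ratio could be formed. Besides Hspe1 and Hsph1, given above, Dnajb6 was listed at 71.8, 54.2 and 0 FPKM (log2 ratio -0.40). No exact match was found in the windows of Hspa1a, Hspa1b or Dnajb1, which says only that these letters are not there in this form.

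The CCT ring, a chaperonin that folds actin and tubulin, had levels within a narrow range. Among 7 subunit genes, leaving out the low relatives Cct6b and Cct8l1, levels above 0 spanned 55.5 to 148 FPKM untreated. They spanned 58.6 to 99.5 FPKM with apoptotic cells and 74.0 to 124 FPKM with LPS. Cct3 was listed at 71.8, 86.8 and 105 FPKM, Cct5 at 91.1, 99.5 and 74.0 FPKM, and Cct6a at 85.3, 88.9 and 99.5 FPKM. The highest level was that of LPS in Cct3 and Cct6a and that of apoptotic cells in Cct5. None of the CCT members with a ratio was past 2-fold, 4 in each comparison, and the log2 ratios ran from -0.41 to 0.54. With median-of-ratios scaling, however, Cct3 passed 2-fold with LPS (1.16), and the ratios of Cct2 and Cct5 changed sign, from -0.26 to 0.37 and from -0.30 to 0.32. Past 2-fold with LPS were 8.51% of all genes upward and 26.2% downward. With apoptotic cells against untreated these shares were 12.4% and 16.4%, and for apoptotic cells against LPS 15.7% and 5.54%. Among so few genes a count of 0 is not far from such shares. Cct2 (148, 0 and 124 FPKM), Cct4 (0, 0 and 117 FPKM), Cct7 (0, 61.6 and 82.0 FPKM) and Cct8 (55.5, 58.6 and 0 FPKM) each had a listed 0. Prefoldin genes, which hand actin and tubulin to the ring, gave 0 of 4 past 2-fold with apoptotic cells and 0 of 3 with LPS, again too few to set against these shares.

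Among heat shock factors and cochaperones outside the members, 19 of 25 were in the table. With apoptotic cells 1 of 11 was at least 2-fold higher, where 12.4% of all genes were, and 2 were lower, where 16.4% were. The higher one was Bag3, a cochaperone of Hsp70 in autophagy, at 15.6, 38.1 and 20.1 FPKM. At least 2-fold lower were Cryab, a small heat shock gene, at 15.4, 0.9502 and 0.970 FPKM, and Serpinh1, the ER chaperone of collagen, at 7.44, 1.38 and 0.708 FPKM. With LPS 0 of 11 were higher, against 8.51% of all genes, and 4 were lower, against 26.2%: Cryab, Serpinh1, Fkbp5 (17.7, 13.7 and 4.24 FPKM) and Bag4 (4.38, 3.01 and 1.48 FPKM). Hsp90 partners differed less, with Stip1 at 34.2, 38.1 and 61.1 FPKM and Fkbp4 at 27.5, 39.6 and 23.5 FPKM. Of 8 mitochondrial partners, 6 were listed at 0 in the untreated library.

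Markers of other peritoneal cells also differed between these libraries. The sums given here count a listed 0 as a value, so where zeros are listed a sum gives no direction. The summed level of 6 mast cell markers was 93.0, 13.8 and 10.2 FPKM, with Fcer1a listed at 0 untreated and Cpa3 at 0 with apoptotic cells. That of 5 B-cell markers was 646, 196 and 161 FPKM, in the untreated library mostly Ly6d (563, 42.7 and 73.9 FPKM). Blnk was also highest there (82.7, 38.4 and 18.5 FPKM). The others were listed at 0 untreated and stood higher elsewhere: Ms4a1 (0, 28.9 and 15.9 FPKM), Cd79b (0, 85.6 and 19.1 FPKM) and Cd79a (0, 0 and 33.6 FPKM). For 5 mesothelial and fibroblast markers the sum was 22.9, 1.70 and 1.13 FPKM, highest in the untreated library as were Cryab and Serpinh1, with Krt19 at 0 in both treated libraries. For 7 T cell and thymocyte markers the sum was 29.6, 79.2 and 1.95 FPKM. Rag1 (0, 41.2 and 0.679 FPKM), Cd3e (0, 7.10 and 0 FPKM), Cd8a (0, 5.41 and 0.107 FPKM) and Lck were listed at 0 in the untreated library. Those above 0 in the untreated and apoptotic-cell libraries were level or lower with apoptotic cells. They were Dntt (13.5, 13.0 and 0.160 FPKM), Cd3g (12.6, 10.6 and 0 FPKM) and Cd4 (3.48, 1.80 and 0.195 FPKM). Of 6 macrophage markers 2 were in the table: Csf1r at 56.3, 185 and 0 FPKM and Fcgr1 at 0.115, 3.29 and 0.377 FPKM. For 5 neutrophil markers the sum was 51.5, 119 and 224 FPKM, nearly all of it S100a8 (48.1, 116 and 222 FPKM). S100a9 was at 1.65, 1.79 and 0 FPKM and Elane at 0 throughout. Counts follow for markers with a ratio of apoptotic cells to no treatment. At least 2-fold lower were 4 of 4 mast cell, 2 of 2 B-cell and 2 of 2 mesothelial and fibroblast markers. At least 2-fold higher were 2 of 2 macrophage and 1 of 3 neutrophil markers, and 0 of 3 T cell markers passed 2-fold. Over all genes 16.4% were lower and 12.4% higher. The part of cell composition, or of RNA brought in by the apoptotic cells, in the chaperone values was not tested. In such bulk RNA fewer cells of a type and less RNA per cell cannot be told apart.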

How the data were processed

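Each of the 3 libraries has a deposited table with 1 value per gene symbol. The values were taken as FPKM made by the authors: the unit is in no label, and the tools listed in the submitters' processing notes are Cufflinks 2.2.1, Cuffdiff, TopHat2 2.1.0 and cutadapt 1.14, for the build mm10. Options, annotation and strandedness, not given in the sources used here, are unknown, so reads of overlapping or near-identical genes may not be separated.

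The members and gene lists were chosen with earlier results of these data known. Members named are those past 2-fold, those with a listed 0 and at least 10 FPKM elsewhere, and a fixed set of well-known genes; others are given for their role. Reads per FPKM were estimated from the steps of values under 5 reads in 233 to 343 single-transcript genes over 800 bases, with a fitted length offset of 275 to 300 bases. The steps are blurred, so whole reads could not be restored and count models were not used. Counting intervals are exact binomial at 95%, computed on the estimated reads with the length of 1 principal transcript (GENCODE M21). Ratios and counts were checked on artificial libraries with known differences. Promoter genes were matched to the table by symbol or RefSeq synonym. Protein sequences were not used here, and 1 gene of a marker list is not reported here. Python 3.11.15, pandas 2.3.3 and scipy 1.17.1 were used.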

Additional observations from a re-analysis of the deposited data

How the results depend on the processing

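No paired analysis was possible because each group has 1 library, and no library could be left out. Higher and lower member counts (main values 5 and 3 for apoptotic cells against untreated, 2 and 4 for LPS against untreated, 5 and 1 for apoptotic cells against LPS) were recomputed. With a pseudocount of 5 they were 3 and 1, 0 and 0, and 2 and 1. With a listed 0 as a value they were 15 and 13, 20 and 12, and 12 and 18. At a threshold of 4-fold they were 1 and 0, 0 and 0, and 1 and 0, and at 1.5-fold 7 and 8 with LPS and 12 and 3 for apoptotic cells against LPS. With a mean of at least 5 FPKM they were 1 and 0 with LPS and 1 and 1 for apoptotic cells against LPS. Median-of-ratios scaling gave 6 and 0, 9 and 2, and 4 and 3, and upper-quartile scaling 7 higher with LPS and 2 lower for apoptotic cells against LPS. The cytosolic median with LPS, -0.32, was 0.15 with median-of-ratios scaling and -0.013 with upper-quartile scaling. The ER medians, 0.99, 0.53 and 0.58, were 1.18, 1.12 and 0.20 with median-of-ratios scaling and 1.04, 0.90 and 0.28 with upper-quartile scaling. Every alternative tried stayed inside the intervals of these medians over members. Those intervals are wide and include 0 (-0.43 to 1.38, -0.08 to 1.19 and -0.12 to 0.75), so this is a weak check. Median-of-ratios scaling moved the median of all genes by 0.18, 0.51 and -0.33 and upper-quartile scaling by 0.05, 0.32 and -0.26; with the former, 538 genes were higher and 428 lower with apoptotic cells against untreated (in place of 418 and 554), 647 and 450 with LPS (291 and 896), and 419 and 443 for apoptotic cells against LPS (722 and 255). Among recomputed ratios of single members, 801 stayed within their counting interval and 82 did not. The 801 include settings that only change which genes enter and so cannot change a ratio. Of 104 ratios, median-of-ratios scaling moved 49 beyond the interval and upper-quartile scaling 32. None of the ratios past 2-fold changed sign. However, 25 smaller ratios changed sign by more than their interval, 16 with median-of-ratios and 9 with upper-quartile scaling, among them Hspe1 with LPS (-0.34 to 0.28 and 0.049). The cause of these shifts was not tested. Genes listed at 0 and genes of a few reads limit what these libraries can show.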

Other observations

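Outside the chaperone members, 22 genes with the exact ER stress element in their promoter window were in the table, and 5 of them averaged at least 1 FPKM over the 3 libraries. Creld2, an ER chaperone-like gene, was listed at 24.3, 56.7 and 0 FPKM (untreated, apoptotic cells, LPS). Ero1lb, an oxidase of the disulfide isomerases, had 23.1, 6.57 and 4.01 FPKM. Syvn1, the ubiquitin ligase of ER-associated degradation, had 0, 18.4 and 20.1 FPKM, Derl3, of the same pathway, 1.84, 1.27 and 0 FPKM, and Alg12, an ER mannosyltransferase, 4.90, 0 and 0 FPKM. Members included, 5 genes with the element had a ratio of apoptotic cells to no treatment: 3 were at least 2-fold higher (Dnajc3, Pdia6 and Creld2), 1 was at least 2-fold lower (Ero1lb) and Derl3 was neither. Over all genes 12.4% were higher and 16.4% lower. With LPS 0 of 4 were higher and 1 (Ero1lb) was lower, against 8.51% and 26.2% of all genes. Genes that hold this element therefore did not share 1 direction.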
